A study of Chlamydomonas reinhardtii with 18 samples.

Results

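In dark-kept cells of the green alga *Chlamydomonas reinhardtii*, 175 genes had much the same level at 15 min and 24 h without nitrite. With nitrite they stood at least 2.5-fold higher at 24 h. The control level at 3 h was no part of this choice, and it was lower than at 15 min for many of these genes. They were chosen by their measured values, from 13564 genes with enough reads to test among 17766 in the tables. A gene was taken where its mean in the control libraries of 24 h was 0.67 to 1.5 times that in the control libraries of 15 min, its mean in the nitrite libraries of 24 h was at least 2.5 times that of the 24 h controls, and the former mean was at least 5 CPM. CPM are reads scaled to a common library size, and 0.5 CPM was added to each group mean before the ratios. The control libraries of 15 min and both groups of 24 h thus chose the genes, and their differences are described here without a test. The libraries of 3 h, and the nitrite libraries of 15 min, entered none of these means. They did enter the filter on low counts and the scaling, which used all libraries.

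All cells were strain 6145c, grown in darkness at 25 °C. The nitrite arm received nitrite to 10 mM in 3 flasks, and the control arm was 3 flasks given none. Polyadenylated RNA was sequenced from both arms 15 min, 3 h and 24 h later, as 3 libraries in each of 6 groups. The replicates are separate flasks, and the same 6 flasks served all 3 times, so the times are not independent cultures. The only difference between the arms that the labels give is nitrite, and no other salt was given to the controls. In bulk RNA, more cells that express a gene and more transcript per cell cannot be told apart.

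Nitrite is an intermediate of nitrate assimilation: nitrate reductase forms it, and nitrite reductase in the chloroplast turns it into ammonium with electrons from ferredoxin. It can also be reduced to nitric oxide, a signalling molecule that inhibits respiration, and this alga can reduce nitric oxide further to nitrous oxide, the gas for which the study is titled. In darkness no photosynthetic electrons are supplied, and the cell lives on respiration of acetate or stored carbon. The deposited tables and the RefSeq gene table (assembly Chlamydomonas_reinhardtii_v5.5) pair identifiers with no gene names, so the genes are given by identifier and position, and a function is given only for a list of loci entered from prior knowledge. No sequence was available for these genes.

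Each library held 6695500 to 8469882 reads assigned to genes. Some libraries went against their labels across the whole transcriptome. On the second principal component (12.5% of the variance) the library labelled nitrite 15 min number 2 lay at -12.4, beside the nitrite libraries of 3 h numbers 1 and 3 (-13.4 and -15.6), and that labelled nitrite 3 h number 2 lay at 46.2, beside nitrite 15 min numbers 1 and 3 (43.4 and 42.5). In control 3 h number 3, 36.5% of reads had more than 1 alignment, against 16.7% to 21.6% in the other libraries. All were kept under their labels. The counts of calls at the early times are given with and without these 3, as are the genes of the set named as called at 3 h.

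The 175 genes together took a larger share of the reads in the nitrite arm at 24 h. Before any scaling, 1.75%, 1.92% and 1.96% of the reads in these 3 libraries fell on them, against 0.570%, 0.663% and 0.920% in the control libraries of that time. At 15 min their share was 0.711% to 0.884% in the control libraries, and 1.17%, 0.679% and 1.16% in nitrite libraries 1, 2 and 3. At 3 h it was 0.634%, 0.472% and 0.409% in the controls and 0.778%, 1.20% and 0.711% with nitrite. So the 3 nitrite libraries of 24 h had the highest shares of the 18, and at 3 h each nitrite library lay above each control library.

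The median of the genes weighs rare and abundant ones alike. Each gene was set relative to its mean in the 15 min controls, as a log2 ratio, and the median over the 175 genes taken. It was 1.83, 1.89 and 1.69 in the nitrite libraries of 24 h, while controls 1 and 2 of that time lay at -0.06 and 0.02. Control 24 h number 3 stood above the other 2, at 0.39. The controls of 3 h lay below zero, at -0.26, -0.39 and -0.27. Among the early nitrite libraries there were 2 levels: numbers 1 and 3 of 15 min (0.54 and 0.43) and number 2 of 3 h (0.58) were high, and number 2 of 15 min (0.00) and numbers 1 and 3 of 3 h (0.04 and -0.03) were low. The split runs along the library placement described above and not along the labelled times. For all 13564 genes the same median stayed between -0.08 and 0.01.

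**Figure D1:**
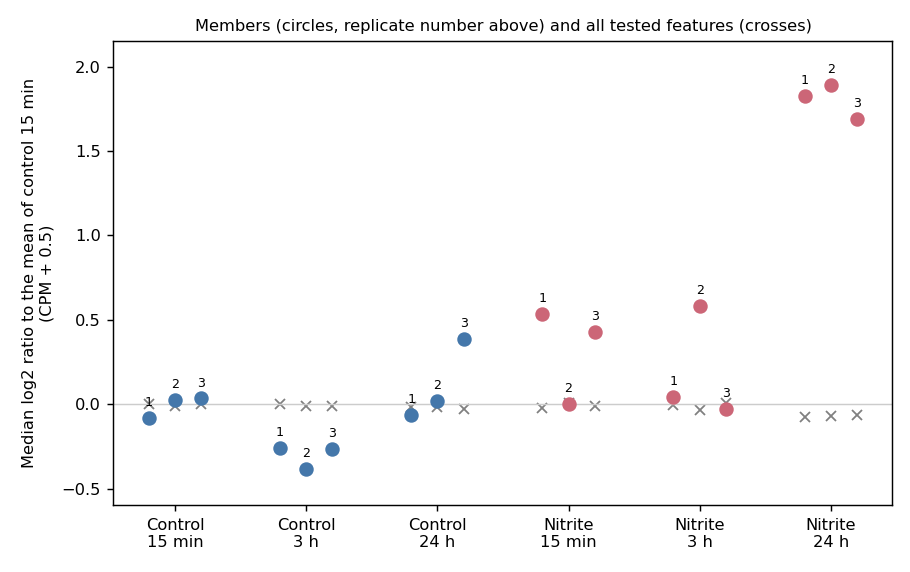
Median over the 175 members (circles) and over all 13564 tested features (grey crosses) of the log2 ratio to the mean of the control libraries of 15 min, after adding 0.5 CPM, for each of the 18 libraries (blue control, red nitrite, replicate number above each circle). Nitrite libraries of 24 h sit at 1.69 to 1.89, and the early nitrite libraries fall into a high and a low level, with number 2 apart from numbers 1 and 3 at both early times.

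At 24 h, where the choice was made, the ratio of nitrite to control ran from 2.51 to 9.15 with a median of 3.08. It was below 3 for 78 genes, from 3 to 4 for 63, from 4 to 5 for 19 and at least 5 for 15. The nitrite libraries lay above the control libraries of 24 h for 175 of 175 genes and above all 15 other libraries for 156. Of the 13564 genes tested, 24.2% showed the first of these patterns. An adjusted p under 0.05 for higher levels with nitrite was met by 174 members and by 15.4% of all genes. Nothing is read from either background, since the choice used this contrast. Between the controls of 15 min and 24 h, 4 members were called higher and 2 lower, where 20.8% and 22.1% of all genes were, and that contrast also entered the rule. Levels in the nitrite libraries of 24 h spanned from 5.09 to 4989 CPM, with a median of 31.9 CPM. The edge of the set is not marked by a gap: just inside the limit of 2.5 lay Cre01.g033091 (2.513) and Cre03.g144444 (2.515), and just outside lay Cre10.g453100 (2.49) and Cre02.g078885 (2.486).

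A few abundant genes carried much of the summed level. The first 5 by level held 52.3% of the summed CPM of the 175 genes in the nitrite libraries of 24 h, and Cre06.g261000 alone held 19.5%. Cre06.g261000 (chromosome 6, 1651220 to 1652875) had 5411, 5039 and 4518 CPM with nitrite at 24 h, and 755, 797 and 2006 CPM without. Its early libraries overlapped between the arms. At 3 h it had 1272, 1397 and 1489 CPM with nitrite and 1025, 1509 and 2352 CPM in the controls, and the difference of -0.23 (log2, SE 0.32) did not pass the test (edgeR adjusted p = 0.706). No direction is drawn from it, since the value was 0.131 with control 3 h number 3 left out, 0.128 with the 3 libraries left out and 0.226 with no scaling.

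Cre14.g624000 (chromosome 14, 2368051 to 2374969) combined a high level with a large ratio. It reached 1626, 2192 and 1906 CPM with nitrite at 24 h, against 312, 298 and 480 CPM, a ratio of 5.24. It had already separated at 3 h, at 314, 522 and 268 CPM with nitrite and 203, 133 and 186 CPM in the controls, which is a log2 rise of 1.08 with an SE of 0.26 (edgeR adjusted p = 0.0329). That call ended without the 3 libraries that stand apart (0.80, edgeR adjusted p = 0.0844). It held in 3 of the 6 fits that left out 1 library of 3 h, with an adjusted p of up to 0.169. Cre06.g302350 (chromosome 6, 7778157 to 7783659) behaved alike, with 734, 908 and 822 CPM against 205, 173 and 267 CPM at 24 h. At 3 h its libraries held 379, 465 and 277 CPM with nitrite and 208, 155 and 225 CPM without (0.93, SE 0.22, edgeR adjusted p = 0.0298), and the call held without the 3 libraries (0.86, adjusted p = 0.0415). It lost the call in 4 of the 6 fits that left out 1 library of 3 h, with an adjusted p of up to 0.169.

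Other abundant genes showed little before 24 h. Cre11.g467723 (chromosome 11, 1404867 to 1415769) was the steadiest of them, at 210 to 245 CPM in the controls of 15 min, 261 to 271 at 3 h and 255 to 324 at 24 h. Its nitrite libraries had 262 to 294 CPM at 15 min, 269 to 308 at 3 h and then 981, 1014 and 905 CPM at 24 h. The log2 fold change at 3 h was 0.11 (SE 0.16, edgeR adjusted p = 0.723). Cre03.g195388, Cre13.g580000 and Cre01.g042200, at 1418 ± 153, 1413 ± 272 and 610.5 ± 64.6 CPM with nitrite at 24 h (SD, n = 3), did not pass the test at 3 h either, with log2 fold changes of 0.15, 0.55 and 0.14. Without the 3 libraries that stand apart the values were 0.15 for Cre11.g467723 and 0.18, 0.30 and 0.18 for these, and none passed. For Cre13.g580000 the early nitrite libraries followed the split of the libraries, at 681, 180 and 499 CPM at 15 min and 198, 537 and 240 CPM at 3 h.

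**Figure D2:**
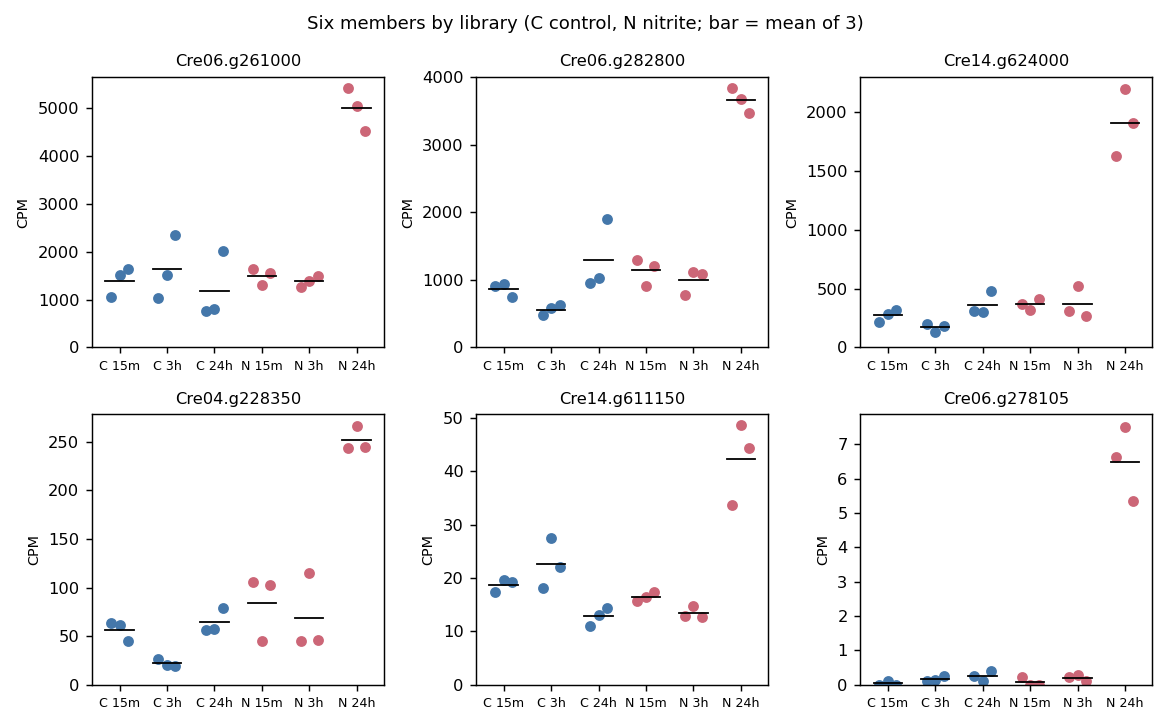
CPM in each of the 18 libraries for 6 members, with the mean of each group of 3 as a bar (C control, blue; N nitrite, red; 15m, 3h and 24h give the time; each vertical axis is linear and starts at 0). Cre06.g261000 stays between 1025 and 2352 CPM in the libraries of 3 h and reaches 4518 to 5411 CPM with nitrite at 24 h, while Cre14.g611150 is lower with nitrite at 3 h and higher at 24 h.

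Of the lists of loci entered from prior knowledge, 1 holds a gene of this set. Cre06.g282800 (chromosome 6, 5284370 to 5288359) is on the glyoxylate cycle list, entered for isocitrate lyase and malate synthase, the enzymes that let cells build sugar precursors from acetate. It had 3836, 3672 and 3478 CPM with nitrite at 24 h and 951, 1024 and 1906 CPM without. Its dark ratio of 1.49 lay close to the limit of 1.5, so it was barely steady by the rule. At 3 h it had 784, 1110 and 1082 CPM with nitrite and 476, 586 and 622 CPM without, groups that did not overlap (0.82, SE 0.25), and it did not pass the test (edgeR adjusted p = 0.0728). The other locus of the list, Cre03.g144807, was no member, since its dark ratio was 2.37. It too was higher with nitrite, at 839 against 312 CPM at 24 h (a ratio of 2.69). At 3 h it had risen by 0.86 in the fit with all libraries (edgeR adjusted p = 0.0414). No value without the 3 libraries that stand apart is given for this locus outside the set. None of the loci entered for the uptake and reduction of nitrate and nitrite (6, of which 3 were tested), for the nitric oxide reductase type P450 and truncated hemoglobins (3), for alternative oxidase (2) or for flavodiiron proteins (2) was a member. The nearest of these by ratio was Cre03.g169550 of the alternative oxidase list, at 2.49 with 3.26 CPM in the nitrite libraries of 24 h.

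Of the 8 largest ratios, 4 belonged to rare transcripts. Cre06.g278105 (chromosome 6, 3503234 to 3506225) had 6.64, 7.50 and 5.35 CPM with nitrite at 24 h, from 115 reads in all, against 0.261, 0.124 and 0.409 CPM from 6 reads in the controls. In the 12 earlier libraries it stayed between 0 and 0.287 CPM. It is 1 of 4 genes, with Cre14.g627411, Cre14.g624700 and Cre02.g086076, that passed the filter on low counts only through the nitrite libraries of 24 h. The remaining 171 would have passed without those libraries. Ratios of the 4 ran from 5.97 to 9.15, with 91 to 121 reads in the nitrite group of 24 h and 6 to 15 in the controls.

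Among genes with more reads, Cre16.g677750 (chromosome 16, 5840891 to 5843843) had the largest ratio. It reached 73.9, 67.5 and 69.4 CPM with nitrite at 24 h and 4.18, 6.47 and 12.9 CPM in the controls, a ratio of 8.46. Cre02.g106450 reached 98.8, 130 and 106 CPM from control values of 14.8, 14.4 and 23.3 CPM, and Cre10.g458100 reached 35.5, 28.6 and 29.0 CPM from 3.40, 4.48 and 6.27 CPM. These 3 did not pass the test at 3 h (0.91, 0.65 and 0.08 on the log2 scale, edgeR adjusted p = 0.232, 0.109 and 0.885), nor with the 3 libraries left out (0.86, 0.40 and 0.21). Cre06.g281350 (chromosome 6, 5142746 to 5151728), with a ratio of 5.73, did pass. At 3 h it had 5.47, 8.52 and 5.56 CPM with nitrite and 2.31, 3.40 and 2.97 CPM without (1.20, SE 0.29, edgeR adjusted p = 0.036), and at 24 h 41.4, 38.0 and 42.5 CPM against 4.96, 6.22 and 8.85 CPM. Without the 3 libraries that stand apart the call at 3 h ended (0.98, adjusted p = 0.0738).

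At 3 h, a time that entered no ratio of the rule, 30 of the 175 genes (17.1%) had risen with nitrite. Of the others, 1 had fallen and 144 did not pass the test (edgeR quasi-likelihood test, adjusted p under 0.05 over all genes tested). Of all 13564 genes, 1.95% had risen at that time and 0.774% had fallen. A further 4332 genes met the same limits on the dark ratio and on level, with a nitrite ratio at 24 h between 0.4 and 2.5. Of these 2.56% had risen, and their levels were not matched to those of the 175 genes. The median log2 fold change of the 175 at 3 h was 0.55, with quartiles of 0.262 and 0.999, and that of all genes was -0.02. At an unadjusted p under 0.05 there were 78, of which 75 were higher with nitrite, against 22.4% of all genes in either direction. The log2 fold change was above zero for 157 of the 175 (89.7%), where 48.4% of all genes were. Each nitrite library of 3 h lay above each control library of 3 h for 68 genes (38.9%, against 10.8% of all genes) and below for 4 (2.29%, against 12%). With the 3 libraries left out, which leaves 2 against 2, these numbers were 95 (54.3%, against 22.7%) and 16 (9.14%, against 24.3%).

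How many passed at 3 h depended on which libraries entered. With control 3 h number 2 left out no gene of the set was called, although 63 had an unadjusted p under 0.05 and the median was 0.52. Without nitrite 3 h number 2 the rises numbered 6 (median 0.31), and without control 3 h number 3 they numbered 13 (0.60). Without the 3 libraries that stand apart 17 had risen and 1 had fallen, at a median of 0.33, where 0.963% of all genes had risen and 0.729% had fallen. Of these 17 rises, 16 were among the 30. Of the 14 genes that the naming rule picks and that were called at 3 h, 14 lost the call with control 3 h number 2 left out, 12 with nitrite 3 h number 2 and 9 with control 3 h number 3.

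**Figure D3:**
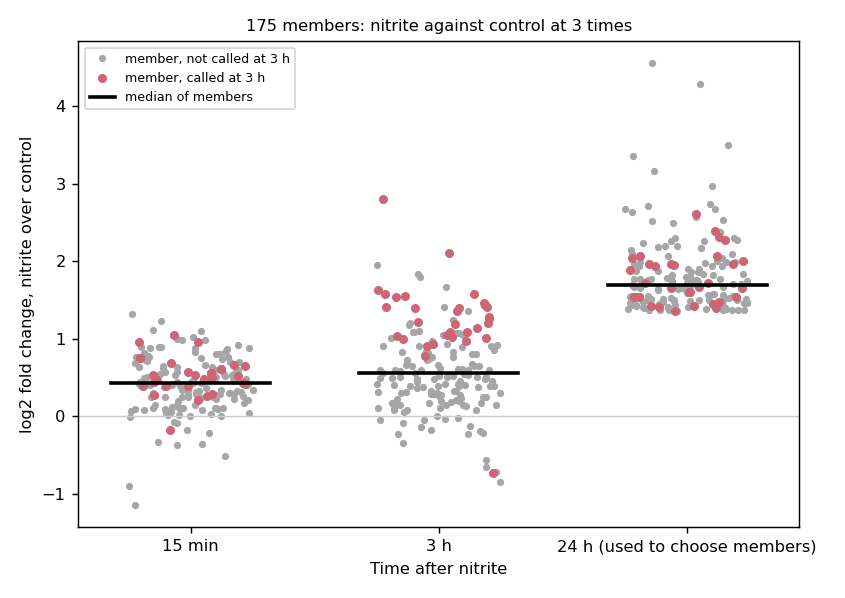
Log2 fold change of nitrite over control for each of the 175 members at 15 min, 3 h and 24 h, with the median as a bar. The 31 members called at 3 h are red. Medians are 0.42 at 15 min, 0.55 at 3 h and 1.70 at 24 h, where the values chose the members.

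The control level was lower at 3 h than at 15 min for many of the genes. For the 30 genes that had risen, the median change from 15 min to 3 h was -0.77 on the log2 scale in the controls and -0.02 with nitrite, and the control values were lower at 3 h for 30 of 30. For the other 145 the same medians were -0.23 and -0.11, and 96 were lower in the controls of 3 h. The same 3 h controls make the call and this drop, so the contrast between the called genes and the others is set by the call and supports nothing. Over the 175 genes, each control library of 3 h lay below each of 15 min for 56 (32%, against 14.4% of all genes) and above for 10 (5.71%, against 15.9%). Only 3 of them passed the test of that change, with Cre03.g158464 and Cre10.g426500 lower at 3 h and Cre12.g551950 higher, where 0.391% of all genes were lower and 0.870% higher. Since the rule used the controls of 15 min, these counts are a description. By 24 h the controls had returned, as the rule requires.

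Cre04.g228350 (chromosome 4, 3549995 to 3558086) is 1 of the called genes. Its control libraries had 63.7, 61.4 and 45.4 CPM at 15 min, 26.6, 20.8 and 19.0 CPM at 3 h, and 56.8, 56.9 and 79.6 CPM at 24 h. With nitrite it had 106, 45.0 and 103 CPM at 15 min, 45.5, 115 and 45.8 CPM at 3 h, and 244, 266 and 245 CPM at 24 h. The 3 h groups did not overlap, and the log2 rise was 1.62 with an SE of 0.34 (edgeR adjusted p = 0.0216). Without the 3 libraries that stand apart it was 0.95 and kept its call (edgeR adjusted p = 0.0163). The level with nitrite was then lower at 3 h than at 15 min, by -1.17, a description since leaving out these libraries favours that difference. The fold at 3 h thus moved by more than 1.5 times with these libraries, and its call ended when nitrite library 2 of that time was left out (adjusted p = 0.0849), or control library 2 (0.128) or 3 (0.0779).

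The largest rise at 3 h, of Cre13.g605404 (chromosome 13, 4845472 to 4848143), came with few control reads. It had 4.61, 12.9 and 3.21 CPM with nitrite and 0.735, 0.850 and 1.73 CPM without (2.80, SE 0.68, edgeR adjusted p = 0.0378). In the controls it was higher both before, at 3.58, 5.38 and 4.16 CPM, and after, at 4.83, 2.49 and 8.17 CPM. It lost its call in 4 of the 6 fits with 1 library left out, and without the 3 libraries (2.31, adjusted p = 0.0972). Cre07.g312550 (chromosome 7, 65436 to 68257) had 3.22, 4.69 and 2.47 CPM with nitrite at 3 h and 1.16, 0.708 and 0.247 CPM without (2.10, SE 0.42, edgeR adjusted p = 0.0179). Its nitrite libraries were already at 2.81 to 3.47 CPM at 15 min, above the controls at 1.40 to 1.58 CPM, and they reached 6.28 to 9.89 CPM at 24 h. That call ended without the 3 libraries (1.57, adjusted p = 0.0643).

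More stable were Cre01.g009025 (chromosome 1, 1700677 to 1702525) and Cre14.g630799 (chromosome 14, 3474435 to 3477496), which kept their calls in 5 of the 6 fits with 1 library of 3 h left out. The exception for both was control 3 h number 2 (adjusted p = 0.0891 and 0.0774). Both also lost the call when the fit held the 3 h groups alone (edgeR adjusted p = 0.139 for each). Cre01.g009025 had 9.33, 15.5 and 8.52 CPM with nitrite at 3 h and 5.14, 2.98 and 2.47 CPM without (1.58, SE 0.28, edgeR adjusted p = 0.00942), and 1.11 without the 3 libraries (adjusted p = 0.0295). Cre14.g630799 had 18.4, 30.2 and 12.96 CPM against 6.61, 6.66 and 8.40 CPM (1.53, SE 0.26, edgeR adjusted p = 0.00709), and 1.255 without the 3 libraries (adjusted p = 0.00405). The other 3 of the 8 largest rises, Cre11.g478600 (1.58), Cre12.g539900 (1.56) and Cre03.g180400 (1.46), each had control levels at 3 h that lay below those at 15 min in every library. Of these, Cre12.g539900 kept its call without the 3 libraries (1.16, adjusted p = 0.00807), and the remaining pair did not (adjusted p = 0.0775 and 0.0784). Cre12.g539900 lost its call with nitrite 3 h number 2 left out (0.88, adjusted p = 0.122) and with control 3 h number 2 left out (1.41, adjusted p = 0.162).

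A single gene had fallen with nitrite at 3 h. Cre14.g611150 (chromosome 14, 478372 to 480991) had 12.97, 14.8 and 12.7 CPM with nitrite and 18.2, 27.5 and 22.0 CPM without (-0.73, SE 0.18, edgeR adjusted p = 0.0375). At 15 min the groups only just did not overlap, at 15.8, 16.4 and 17.36 CPM with nitrite and 17.41, 19.6 and 19.2 CPM without, and the gene was not called. At 24 h the order was the opposite, with 33.7, 48.7 and 44.4 CPM against 11.1, 13.1 and 14.4 CPM. The call at 3 h was lost in 5 of the 6 fits with 1 library left out (adjusted p up to 0.208) and without scaling (-0.39, adjusted p = 0.521), and it held without the 3 libraries (-0.81, adjusted p = 0.0492).

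The differences at 3 h showed no steady order by the ratio at 24 h. The median log2 fold change at 3 h was 0.60 for the 78 genes with a ratio below 3, 0.48 for the 63 from 3 to 4, 0.41 for the 19 from 4 to 5 and 0.67 for the 15 at 5 or more. Of the 30 rises, 12, 13, 3 and 2 lay in these classes. By level in the nitrite libraries of 24 h, 1 of the 23 genes between 5 and 10 CPM had risen at 3 h, 7 of the 59 from 10 to 30, 11 of the 55 from 30 to 100, 9 of the 26 from 100 to 300 and 2 of the 12 above, so that the smallest share of calls fell where reads were fewest. The medians by ratio without the 3 libraries were 0.37, 0.31, 0.33 and 0.40, with 5, 10, 2 and 0 rises, and the rises by level numbered 0, 1, 7, 7 and 2.

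At 15 min none of the 175 genes was called (edgeR), nor were more than 4 of all genes (0.0295% higher and 0 lower). At an unadjusted p under 0.05 there were 43, of which 42 were higher with nitrite, where 8.12% of all genes had such a p in either direction, and DESeq2 called 1 and voom 0. The median log2 fold change of the 175 was 0.42, against 0.02 for all genes, and it was above zero for 162 of them (92.6%, against 52% of all genes). Nitrite libraries lay above the control libraries of 15 min without overlap for 35 genes (20%, against 6.97% of all) and below for 2 (against 7.51%). The controls of 15 min entered the rule, and the library labelled nitrite 15 min number 2 is among those that stand apart.

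With those 3 libraries left out, 42 of the 175 (24%) were higher with nitrite at 15 min and 1 was lower, where 1.92% and 0.306% of all genes were. The rule used the controls of 15 min, so these counts are a description and nothing is read from the backgrounds. Of these 42, 5 had risen at 3 h as well. Libraries of the arms then did not overlap at 15 min for 106 genes higher with nitrite (60.6%, against 16.7% of all) and 5 lower (2.86%, against 18.8%). Cre16.g687350, named after its values were seen, had 219, 42.7 and 173 CPM at 15 min and 40.8, 177 and 43.0 CPM at 3 h with nitrite, against 84.9, 87.9 and 63.2 CPM and 41.1, 39.1 and 34.6 CPM in the controls. In that fit the difference between the arms at 15 min was 1.29 (log2), given as a description. Within the nitrite arm it was lower at 3 h than at 15 min, by -2.20 (SE 0.21). This is a description too, since the nitrite libraries left out were those that lay with the other early time. At 3 h the arms then differed by 0.07 (edgeR adjusted p = 0.919). At 24 h it had 198, 206 and 152 CPM with nitrite and 61.3, 56.8 and 84.1 CPM without, so that its 3 high early nitrite libraries (173 to 219 CPM) lie in the range of those of 24 h or above it.

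Within the nitrite arm, no gene of the set differed between 15 min and 3 h with all libraries (edgeR; 0% of all genes were called). There were 3 at an unadjusted p under 0.05, where 1.45% of all genes were, and neither DESeq2 nor voom called any. The median change was -0.09, and the libraries of 3 h lay wholly above those of 15 min for 2 genes (1.97% of all genes) and wholly below for 1 (1.83%). Without the 3 libraries, 61 of the 175 (34.9%) were lower at 3 h than at 15 min and 9 were higher. Of all genes 10.7% and 10.2% were, and the median change of the 175 was -0.43. The nitrite libraries left out were those that lay with the other early time, which favours calls in this contrast. These counts are therefore a description, and nothing is read from the backgrounds. The control arm had a median change of -0.30 with all libraries and of -0.30 without the 3, with 33 genes then lower (18.9%, against 6% of all genes) and 4 higher (against 5.99%). These last counts use the controls of 15 min and are a description.

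**Figure D4:**
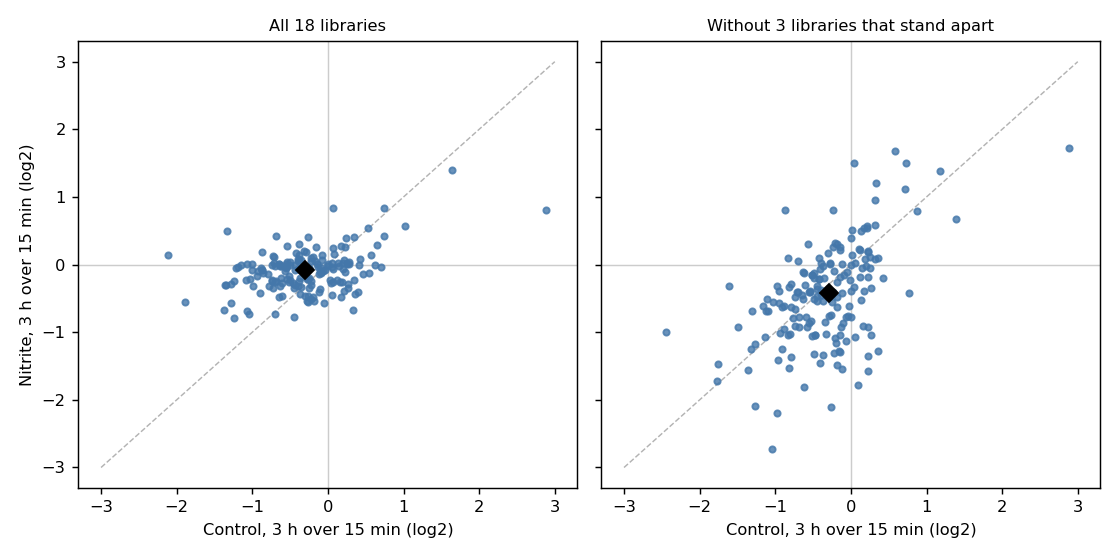
Change from 15 min to 3 h in the control arm (horizontal, log2) and in the nitrite arm (vertical, log2) for each of the 175 members, with all 18 libraries (left) and without the 3 libraries that stand apart (right). Black diamonds mark the medians and the dashed line equal change. The vertical median moves from -0.09 to -0.43, while the horizontal one stays at -0.30.

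A test of the change in the nitrite effect between both early times called none of the 175 genes (edgeR, lowest adjusted p = 0.801; 0% of all genes were called), and 21 had an unadjusted p under 0.05, where 6% of all genes did. With the 3 libraries left out 1 was called, Cre04.g217911, named after its values were seen, with a lower effect at 3 h (-1.575, edgeR adjusted p = 0.0474, where 0.0802% of all genes were called lower and 0.00729% higher). Both fits use the controls of 15 min, which the rule also used. The second also leaves out the nitrite libraries that lay with the other early time, so its call is a description. Between 3 h and 24 h in the nitrite arm, the median ratio of the set was 2.95, with a range of 1.05 to 9.88, and 163 members were called higher at 24 h, where 27.1% of all genes were. The rule used the libraries of 24 h. Cre05.g245352, named after its values were seen, had next to the lowest of these ratios, 1.07, with 31.6, 39.1 and 19.3 CPM at 15 min, 36.3, 23.4 and 34.6 CPM at 3 h and 42.3, 41.8 and 16.5 CPM at 24 h with nitrite. Its control libraries spread from 1.56 to 29.98 CPM, and it was the only one of the 175 whose difference at 24 h had an adjusted p above 0.05 (0.171).

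**Figure D5:**
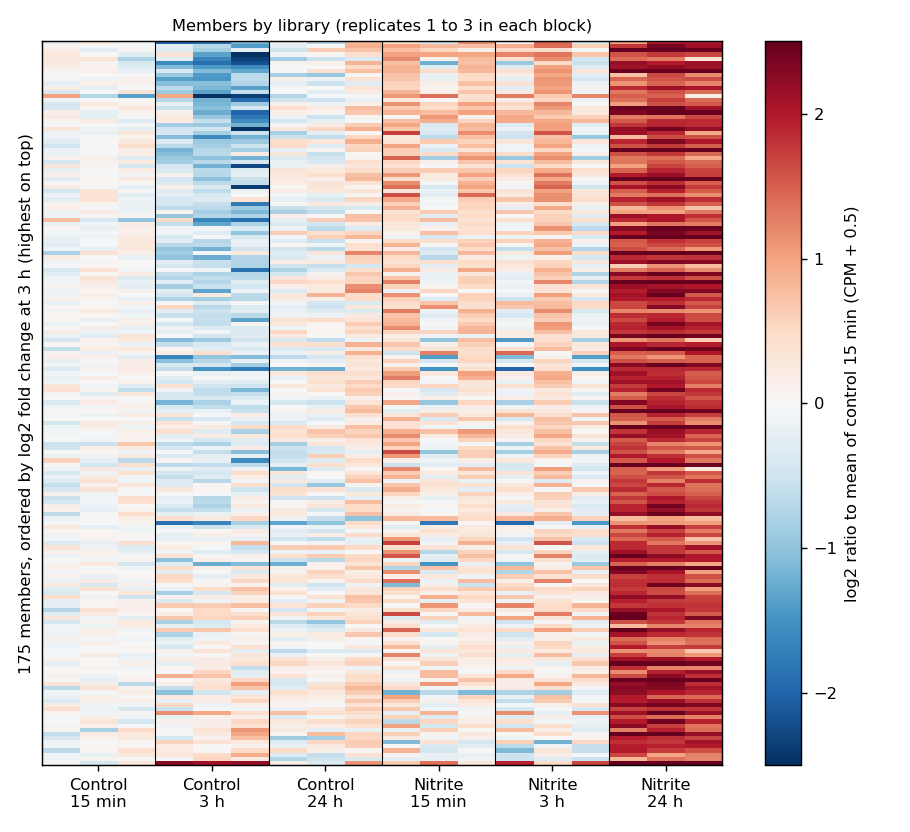
Log2 ratio of each library to the mean of the 15 min controls (0.5 CPM added) for the 175 members, ordered by their log2 fold change at 3 h, with the 3 replicates of each group side by side. Colours are capped at 2.5 in either direction. Rows at the top are low in the controls of 3 h, and the nitrite libraries of 24 h are high throughout.

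The 175 genes were spread over all 17 chromosomes, with 2 at loci that the table places on none. They made up 1.29% of the genes tested, with a lowest share on chromosome 8 (4 of 513, 0.78%) and a highest on chromosome 1 (19 of 979, 1.94%). The median span of their loci was 4954 bases, against 4687.5 for all tested loci. In 12 places members were direct neighbours, 25 genes in all (14.3% of the set), as 11 pairs and 1 run of 3. No such share was computed for other genes, so nothing is read from this one. Gaps within these runs were 11 to 3732 bases. Where neighbours overlap or share transcripts, reads may be assigned to either, and the strand setting of the counting is not given.

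The run of 3 lies on chromosome 14, from 3468485 to 3477496, and holds Cre14.g630775, Cre14.g630787 and Cre14.g630799 with 138 and 278 bases between them. All of them had risen at 3 h, by 1.18, 1.14 and 1.53 (SE 0.30, 0.23 and 0.26, edgeR adjusted p = 0.038, 0.019 and 0.00709), and all 3 calls held without the 3 libraries (1.31, 1.11 and 1.255). With 1 library of 3 h left out, Cre14.g630775 kept its call in 2 of 6 fits (adjusted p up to 0.173) and Cre14.g630787 in 4 of 6 (up to 0.119). Cre14.g630775 also lost it with only the nitrite pair left out (0.92, adjusted p = 0.0827). At 3 h Cre14.g630775 had 9.22, 13.9 and 7.53 CPM with nitrite and 2.94, 3.97 and 7.66 CPM without, which overlap. Cre14.g630787 had 31.9, 43.3 and 30.1 CPM against 13.5, 15.4 and 19.3 CPM, without overlap. Their ratios at 24 h were close, at 3.12, 2.74 and 3.06, and their levels with nitrite at 24 h were 21.3 ± 2.56, 69.0 ± 4.71 and 35.4 ± 4.37 CPM (SD, n = 3).

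Of the 11 pairs, both genes had risen at 3 h in 1, Cre03.g150550 and Cre03.g150600, named after their values were seen (1.36 and 0.78, edgeR adjusted p = 0.0176 and 0.0224). Both calls held without the 3 libraries (1.04 and 0.82). In the other pairs a single neighbour or none passed the test. Cre01.g009000, which ends 51 bases before Cre01.g009025, had 21.8, 30.3 and 15.6 CPM with nitrite and 15.6, 16.6 and 20.3 CPM without at 3 h (0.38, SE 0.26, edgeR adjusted p = 0.396), where its neighbour had risen by 1.58. It stood at 0.23 without the 3 libraries. Their ratios at 24 h were 3.85 and 4.75. Cre01.g032900 and Cre01.g032950 differed by 0.91 and 0.42 at 3 h, and neither passed (adjusted p = 0.06 and 0.315), nor did they without the 3 libraries (0.66 and 0.61). Cre06.g282750, 164 bases before the glyoxylate list locus Cre06.g282800 and named after its values were seen, was raised 2.58-fold at 24 h, from 9.33 to 11.99 CPM in the controls to 25.3 to 30.2 CPM with nitrite. Whether the 2 genes of a pair differ in their response was not tested.

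Genes outside the set followed its mean closely. Over the 18 libraries, the log2 CPM of the 175 genes correlated with their own mean at a median Pearson r of 0.90 (0.42 to 0.98), where each gene is part of the mean. The 3 genes outside it with the highest r were Cre13.g591600 (0.98), Cre07.g336650 (0.97) and Cre03.g174350 (0.97). These values describe libraries that share flasks and times. Cre13.g591600 missed the set by its ratio of 2.44, and the remaining pair by dark ratios of 1.59 and 1.66. Cre07.g336650 stood at 126 CPM with nitrite at 24 h and 11.2 CPM without, a ratio of 10.8, larger than any in the set.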

How the data were processed

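Polyadenylated RNA of 18 libraries was measured with stranded TruSeq libraries, per the labels' protocols. The submitters' processing notes name TopHat2 2.0.13 and HTSeq. Which genome build was used, and how counting handled strand, is not given in the sources used here. Values deposited by the authors are raw counts of reads per gene, 1 table per library. The 5 summary lines of each table were kept out of totals and tests. They hold 16.7% to 36.5% (several alignments), 0.892% to 1.67% (outside genes) and 0.0597% to 0.439% (ambiguous) of the reads.

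The filter was filterByExpr on the 6 groups with a minimum count of 10. The 13564 features left were scaled by TMM (factors 0.604 to 1.437). CPM values come from these factors. One edgeR 4.0.16 quasi-likelihood model (R 4.3.3, robust, a mean per group, 12 residual degrees of freedom) covered all libraries, and p-values were adjusted by Benjamini-Hochberg over all features tested. SE is the log2 fold change over the square root of F. The tests were tried on simulated counts. These were drawn independently for each library, with no shared flasks and no libraries that stand apart. The trial therefore cannot tell how either affects the calls at 3 h. No 2 libraries of a group agreed within sampling noise (18 pairs, chi-square per degree of freedom at least 4.26).

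Members and lists were chosen with earlier results of these data known. Named are the 8 members with the highest level, the 8 with the largest ratio, the 8 largest rises and every fall at 3 h, the nearest to the limit, the 3 longest runs of neighbours, list members and the 3 most alike outside. Others were named after their values were seen. Coordinates are those of the reference gene table, in which every member was found by its locus tag. Alternatives were other scalings, filters, tools, limits and left-out libraries, DESeq2 1.42.0 and limma 3.58.1 (voom) among them.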

Additional observations from a re-analysis of the deposited data

Results flagged for a closer look

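For 4 genes of the set the nitrite libraries all lay below the control libraries at 3 h and all above them at 24 h, so that the effects point in opposite directions. The difference between the effects was not tested, since the rule chose the genes by their values at 24 h. The log2 fold changes at 3 h were -0.848 for Cre12.g551950, -0.734 for Cre14.g611150, -0.725 for Cre11.g467599 and -0.568 for Cre01.g055428. Of these, Cre14.g611150 passed the test at 3 h (edgeR adjusted p = 0.0375) and the other 3 did not (0.228, 0.147 and 0.121). Without the 3 libraries that stand apart the values in the same order were -0.437, -0.81, -0.70 and -0.81. Again Cre14.g611150 passed (edgeR adjusted p = 0.0492) and the other 3 did not (0.583, 0.278 and 0.0688). Nitrite lay below control without overlap at 3 h for 12% of all genes tested.

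Cre12.g551950 had a peak at 3 h in the controls, at 0.666, 0.351 and 0.860 CPM at 15 min, 4.93, 4.39 and 4.70 CPM at 3 h and 0.784, 0.373 and 1.91 CPM at 24 h. With nitrite it had 1.23, 2.39 and 0.873 CPM, then 3.75, 1.05 and 3.09 CPM, then 8.79, 9.03 and 6.30 CPM. Cre01.g055428 had 5.57, 8.71 and 5.93 CPM with nitrite at 3 h against 10.8, 9.35 and 9.89 CPM, and at 24 h 37.3, 37.2 and 37.9 CPM against 8.23, 10.8 and 14.4 CPM. Its direct neighbour Cre01.g055432, also in the set, differed by 0.61 at 3 h (SE 0.18, edgeR adjusted p = 0.0625). Cre11.g467599 had 2.68, 4.50 and 3.95 CPM with nitrite at 3 h against 5.04, 5.81 and 8.16 CPM.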

How the results depend on the processing

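The number of genes chosen was 190 with relative log expression factors, 174 without the filter and 217 with group medians, but 76 without scaling, of which 53 were among the 175. It was 382 with a limit of 2, 97 with a limit of 3 and 103 with narrower limits on the dark ratio. Without the 3 libraries that stand apart, which enter the filter and the scaling only, it was 187, of which 173 were among the 175. With 1 library left out it ran from 153 to 282, the latter without control 24 h number 3, and 160 of the 282 were among the 175. In each of these sets the median log2 fold change at 3 h stayed between 0.49 and 0.66 and 15.6% to 22.4% had risen. These 3 h values all come from the main fit with all libraries and TMM scaling, so only the choice of genes differs. They do not show how the fold changes at 3 h move with the libraries or the scaling.

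Rises at 3 h numbered 30 and became 32 with relative log expression factors, 28 without the filter, 26 with voom, 49 with DESeq2, 19 without scaling and 0 when the fit held the 3 h groups alone, where 75 had an unadjusted p under 0.05. They numbered 0 to 41 with 1 library left out and 17 without the 3 libraries that stand apart. The median was positive in all of these, from 0.31 to 0.87. Without scaling the median of all genes moved to 0.29 at 3 h and -0.46 at 24 h, where that of the 175 was 0.87 and 1.28.

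At 15 min DESeq2 called 1 gene, and 42 were higher without the 3 libraries and 34 without the nitrite pair among them. With 1 library left out it was 0 to 1. Within the nitrite arm 9 and 8 genes were higher and 61 and 58 lower at 3 h in those fits, given as a description. The calls between 15 min and 3 h in the controls, 3 in all, became 0 without scaling, 27 when the fit held those groups alone, 17 with DESeq2, 37 without the 3 libraries, 37 without the nitrite pair, and 0 to 18 with 1 library left out. Leaving the 3 libraries out of the change in effect, the classes and the overlaps was likewise chosen after seeing the data. Where a cause is not given by fewer samples or genes, the cause was not tested.

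The labels do not say that a replicate number marks a flask, and same-numbered libraries did not deviate together throughout. Correlations of their deviations were -0.01, -0.06 and 0.08 between the arms at 3 h, -0.47, -0.77 and -0.39 between 15 min and 3 h with nitrite, and 0.38, 0.01 and 0.37 between these times in the controls. In these 3 comparisons 0, 0 and 2 of 3 libraries correlated best with their own number. In the nitrite arm number 2 lay with the other early time in both groups. Deviations are from the group mean, so the values within that arm cannot tell whether a number marks a flask. With the replicate number as a block within each arm, rises at 3 h numbered 15 and calls in the control arm 0, and with a block shared between arms, a fit added after seeing the data like that without the nitrite pair, 20 and 1. Of the 14 named genes called at 3 h, 7 had an adjusted p of 0.0556 to 0.0699 with the block within arms, Cre04.g228350, Cre12.g539900, Cre14.g624000 and Cre14.g630775 among them.

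Among the single genes named at 3 h, 414 of 504 refits left the call unchanged, 84 lost a call and 6 gained one. Most of these refits are of genes with no call to lose, so the first number does not measure how stable the calls are. All losses fell on the 14 called genes. All 14 lost the call with the 3 h groups alone and with control 3 h number 2 left out, and 0 with DESeq2 or relative log expression factors. None changed direction where either fit called the gene. Refits in which neither fit called the gene count as unchanged even where the sign turned, as for Cre06.g261000 (-0.23, and 0.226 without scaling). Depth limits the 4 genes with 15 or fewer control reads at 24 h.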
